A study of Mus musculus with 24 samples.

Results

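The guanylate-binding proteins (GBPs) and the immunity-related GTPases (IRGs) are families of GTP-hydrolysing enzymes that cells make in response to interferons. Levels of 10 of these genes were followed in RNA sequencing of mouse bone marrow-derived macrophages. The 10 genes were listed by name and matched to the rows of the count table by Ensembl identifier, 10 of 56941 genes in the table, and all 10 were among the 14757 genes with enough counts to test. They are 5 GBPs, which are Gbp2, Gbp3, Gbp5, Gbp7 and Gbp9, and 5 IRGs, which are Irgm1, Irgm2, Igtp, Iigp1 and Ifi47. In the RefSeq gene annotation, Gbp2, Gbp3, Gbp5 and Gbp7 lie on chromosome 3 and Gbp9 on chromosome 5. Irgm1, Irgm2, Igtp and Ifi47 lie on chromosome 11 and Iigp1 on chromosome 18.

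The macrophages had been grown from bone marrow in medium conditioned by L929 cells, a fibroblast line that secretes the macrophage growth factor CSF1. They were then kept for 24 hours without conditioned medium and either left untreated or stimulated, in serum-free medium, with lipopolysaccharide (LPS), the bacterial outer membrane component sensed by the receptor TLR4, at 100 ng/ml for 6 hours. The genotypes were wild type (WT), a knockout (KO) of the gene for HDAC9, one of the class IIa deacetylases, and a line labelled HDAC9 deltaCIS (dCIS), a deletion that the series' title ties to a cis-regulatory element of HDAC9. Each genotype was sequenced untreated and after LPS with 4 libraries per group, 24 in all. In the labels and protocols, the 6 groups share the bone marrow origin and the culture, while age, sex, strain and the number of founder lines are not given there. Nothing states whether the 4 libraries of a group are separate animals or cultures, so every p-value below rests on a spread between libraries that may be technical.

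GBPs are large GTPases that assemble on membranes, coat vacuoles holding bacteria or parasites and cytosolic bacteria, and help the cytosolic LPS sensor caspase-11, encoded by Casp4 in the mouse, to reach its ligand. IRGs fall into effector proteins, such as Iigp1 and Ifi47, which load onto pathogen vacuoles and disrupt them, and regulatory proteins, Irgm1, Irgm2 and Igtp, which sit on the cell's own membranes and hold the effectors inactive there. Macrophages that sense LPS secrete interferon beta, which acts back on them through the receptor IFNAR, the kinases JAK1 and TYK2 and factors that include STAT2 and IRF9. These factors bind interferon-stimulated response elements (ISRE). Interferon gamma acts through gamma-activated sites (GAS), and NF-kB, which TLR4 activates directly, binds kB sites.

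Promoters were read from RefSeq sequences of assembly GRCm38.p6, from 250 bases before to 50 bases after each gene's start, and held an entry for 8 of the 10 genes. The assembly of the counts is mm39, so positions serve only to place these sequences. Gbp9 and Iigp1 are named only. The 60-base windows around the ISRE core of 7 genes are shown because the genes moved together on LPS, each 5′ to 3′ on the gene's strand, with matches to the ISRE core, and for Igtp and Irgm2 also to the GAS, in capitals.
Gbp2, chr3:142620579-142620638, plus strand: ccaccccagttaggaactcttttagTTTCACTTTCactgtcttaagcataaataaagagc
Gbp3, chr3:142559977-142560036, plus strand: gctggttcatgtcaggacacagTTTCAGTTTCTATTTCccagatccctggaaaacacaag
Gbp5, chr3:142496744-142496803, plus strand: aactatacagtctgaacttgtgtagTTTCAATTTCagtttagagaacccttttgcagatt
Gbp7, chr3:142530258-142530317, plus strand: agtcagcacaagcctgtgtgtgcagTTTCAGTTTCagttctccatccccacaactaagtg
Irgm1, chr11:48871413-48871472, minus strand: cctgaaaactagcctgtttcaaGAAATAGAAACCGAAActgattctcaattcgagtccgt
Irgm2, chr11:58214882-58214941, plus strand: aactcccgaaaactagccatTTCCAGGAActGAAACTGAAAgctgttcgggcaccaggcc
Igtp, chr11:58199491-58199550, plus strand: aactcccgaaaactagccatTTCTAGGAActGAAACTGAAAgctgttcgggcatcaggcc

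The ISRE core was searched as TTTCNNTTTC on both strands, where N is any base, and lay in the promoters of 7 of the 8 genes. Of all 32851 promoters in the table, 3.44% held it, and by gene 1079 of 27025 had it in a promoter. The GBPs shown carry it as written and the IRGs shown carry its reverse complement. The core began 59 bases before the start in Gbp2, 165 in Gbp5 and 53 in Gbp7, and 2 overlapping copies began 45 and 39 bases before the start in Gbp3 and 30 and 24 bases before it in Irgm1. Gbp3 had 2 starts with a promoter entry, and the core lay at the start shown and not at the other. The whole promoter of Ifi47, 300 bases, held no match to these letters. The GAS, searched as TTCNNNGAA, which reads the same on both strands, lay in the promoters of Gbp5, Gbp7, Igtp and Irgm2, 4 of the 8 genes, and in 8.3% of all promoters. A kB site, searched as GGGANNTTCC on both strands, lay in the promoters of Gbp2 and Gbp5 and in 1.47% of all promoters. By gene, the GAS lay in promoters of 2582 and the kB site in those of 441 of 27025.

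Irgm2 and Igtp, neighbouring regulatory IRGs, had windows identical at 58 of 60 bases, and in both a GAS was followed by the ISRE core with their first bases 11 apart. That arrangement, searched as TTCNNNGAANNGAAANNGAAA on both strands, occurred in 5 of 32851 promoters, 0.0152%. Its letters and spacing follow the Irgm2 and Igtp windows, so the matches of these genes were fixed in advance. The remaining 3 belong to Gm12185, Tgtp1 and Tgtp2, all IRG genes, and their windows are shown for comparison with the same capitals.
Tgtp1, chr11:48992295-48992354, minus strand: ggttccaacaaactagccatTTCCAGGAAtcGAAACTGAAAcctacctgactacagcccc
Tgtp2, chr11:49064254-49064313, minus strand: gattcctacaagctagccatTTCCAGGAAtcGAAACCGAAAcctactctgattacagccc
Gm12185, chr11:48927229-48927288, minus strand: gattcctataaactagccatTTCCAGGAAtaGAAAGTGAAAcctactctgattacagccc
A match of letters describes the sequence and does not show that a factor binds there. The motifs were chosen with the LPS response of these genes known. All 5 windows with the arrangement also read ctagccat just before the GAS. Their matches therefore cannot be counted as independent, and the share of promoters does not measure how unusual the arrangement is.

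Total counts per library ranged from 14636058 to 19181707. Genes with a count numbered 17628 and 15997 in dCIS LPS libraries 3 and 4, and at least 20458 elsewhere. Hdac9, the targeted gene, averaged 1.04 CPM (counts scaled by TMM library size) in untreated KO and 0.302 after LPS, against 11.2 and 12.3 in WT and 15.6 and 14.6 in dCIS (exact permutation test of KO against WT, p = 0.0286, the smallest 4 against 4 libraries can give). All 7 macrophage markers, among them Adgre1, Csf1r and Cd68, exceeded 1 CPM in every group and summed to between 15100 and 25400 CPM in single libraries. Of the neutrophil markers 6 of 7 stayed under 1 CPM in every group, with Ly6g at 0 counts in all libraries, and of the NK and T cell markers 8 of 9, with Gzma at 0. Untreated, the NK and T cell markers summed to 7.11 to 11.7 CPM in WT, 7.18 to 22.2 in KO and 3.17 to 7.22 in dCIS. The 1 of them that could be tested was higher in untreated KO than dCIS (log2 difference 1.38, adjusted p under 0.05, edgeR), as were 12.1% of all tested genes. Against untreated WT it did not pass (0.56). B cell markers were under 1 CPM for 4 of 5 genes in every group, dendritic markers for 4 to 6 of 6, and stromal and endothelial markers for 5 or 6 of 6, with Col3a1 at 0. In these bulk libraries, fewer cells of a type and less RNA per cell cannot be told apart.

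LPS raised all 10 genes in all 3 genotypes. Called here means an adjusted p under 0.05 (edgeR's quasi-likelihood test, Benjamini-Hochberg over all tested genes), and 30.4% of all tested genes were called higher on LPS in WT, 30.9% in KO and 31.3% in dCIS. The median log2 fold change of the 10 genes was 5.83 in WT, 5.60 in KO and 5.98 in dCIS, against medians of 0.00, 0.02 and -0.05 over all tested genes. For the 5 GBPs the median was 7.21 in WT, and for the 5 IRGs it was 4.42. Every LPS library lay above every untreated library for each of the 10 genes, across all genotypes, from 7.36-fold between the lowest LPS and the highest untreated library for Irgm2 to 257-fold for Gbp5. Within a genotype, all LPS libraries lay above all untreated ones for 30.6% of all tested genes in WT, 30.1% in KO and 25.3% in dCIS.

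**Figure D1:**
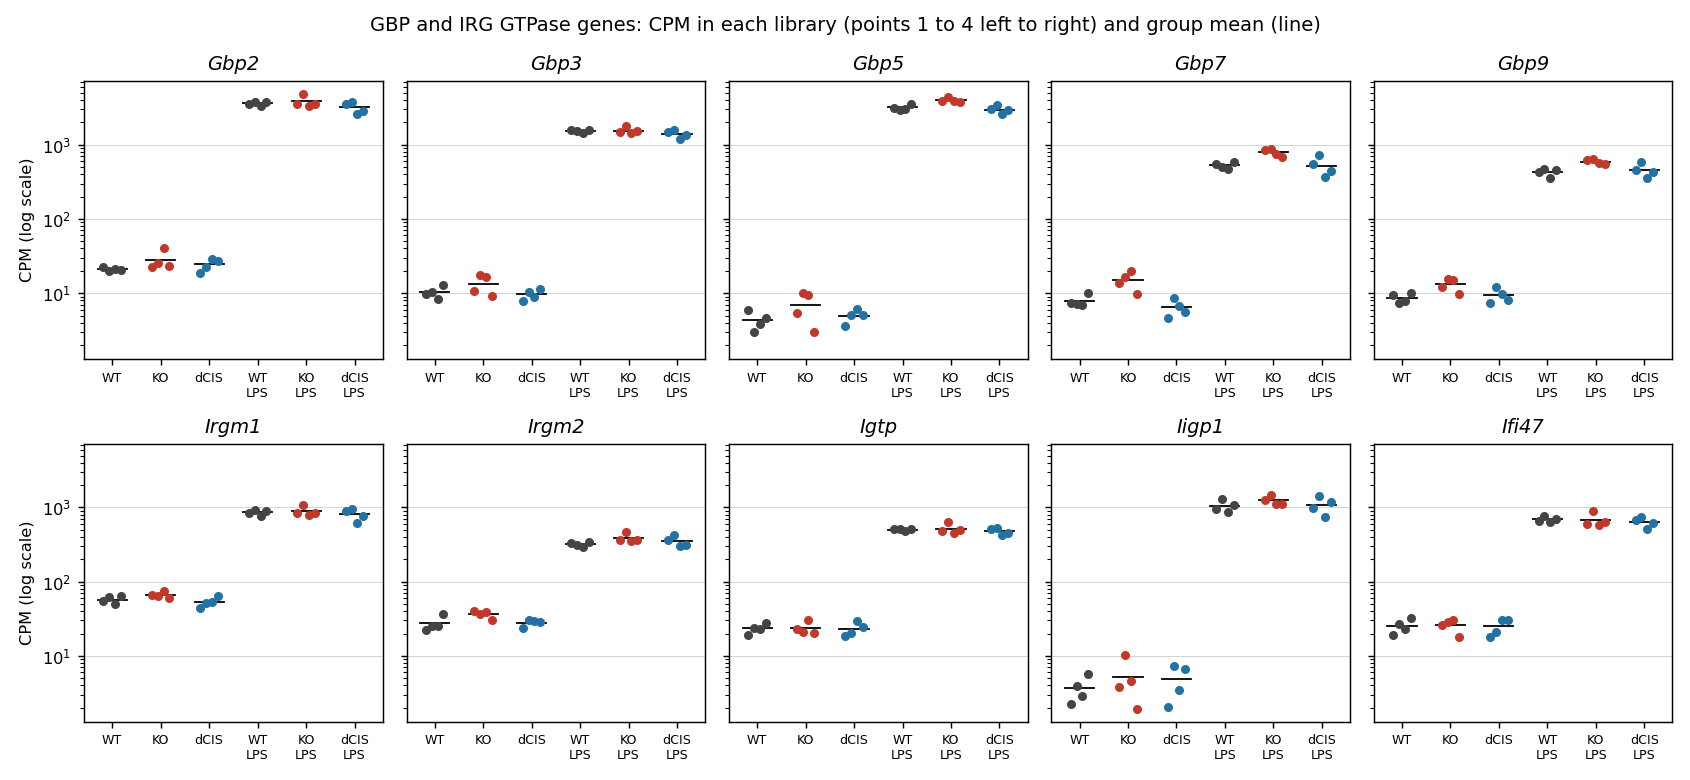
Level of each of the 10 genes in every library, in CPM on a log axis, with 1 panel per gene. Points are libraries 1 to 4 from left to right and lines are group means. The 12 LPS libraries lie above the 12 untreated libraries in every panel, and genotypes within a treatment lie close together.

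The size of the response depends on how libraries are scaled. The scaling factors (TMM, which aligns the bulk of genes between libraries) lay above 1 in all untreated and below 1 in all LPS libraries. Changes are therefore relative to the bulk of genes. With library size alone, an alternative chosen after seeing the data, the median of all tested genes moved to -0.80 on LPS in WT, -0.80 in KO and -0.81 in dCIS, and the share of called genes that were higher fell from 49.5% to 17.8% in WT. The 10 genes then rose by log2 fold changes of 2.74 to 8.69 in WT, 2.58 to 8.32 in KO and 2.88 to 8.46 in dCIS.

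Among the GBPs, Gbp5, which promotes assembly of the NLRP3 inflammasome, changed most. Its levels in the 4 untreated WT libraries were 5.99, 2.98, 3.86 and 4.65 CPM, and after LPS they were 3160, 2950, 3060 and 3550 CPM. The log2 fold change was 9.50 (SE 0.312; adjusted p = 3.14e-19, edgeR), or 726-fold. None of the other 9 genes changed as much in any genotype.

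Gbp2, a GBP that carries a lipid anchor and coats the vacuole of Toxoplasma, was at 22.7, 20.2, 21.1 and 20.6 CPM in untreated WT and at 3550, 3800, 3370 and 3710 CPM after LPS (log2 fold change 7.42, SE 0.218; adjusted p = 5.23e-20, edgeR). Gbp3, from the same cluster on chromosome 3, was at 9.71, 10.3, 8.39 and 12.7 CPM untreated and 1560, 1520, 1440 and 1590 CPM after LPS (7.21, SE 0.200). The WT libraries of each treatment stayed close to one another for both genes, and the changes of the pair differed by 0.20 with an SE of 0.296.

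Gbp7, reported to help assemble the NADPH oxidase on phagosomes, was at 7.48, 7.13, 7 and 10.2 CPM in untreated WT and 555, 506, 468 and 585 CPM after LPS (log2 fold change 6.05, SE 0.242). Gbp9, of the chromosome 5 cluster, was at 9.47, 7.36, 7.96 and 10.1 CPM untreated and 429, 468, 358 and 458 CPM after LPS (5.61, SE 0.188). These were the smallest changes among the 5 GBPs, and both were larger than those of 4 of the 5 IRGs.

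Among the IRG effectors, Iigp1, also known as Irga6, changed far more than Ifi47, also known as Irgd. Iigp1 was at 2.23, 3.96, 2.91 and 5.67 CPM in untreated WT and 962, 1290, 864 and 1080 CPM after LPS (log2 fold change 8.15, SE 0.434). Ifi47 was at 19.4, 26.7, 22.7 and 32 CPM untreated and 664, 758, 639 and 706 CPM after LPS (4.78, SE 0.209). The untreated libraries of Iigp1 varied more in proportion than those of Ifi47, and its SE was the largest of the 10 genes.

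The 3 regulatory IRGs changed least of the 10 genes. Irgm1, which also guards macrophage autophagy and lysosomes, was at 54.3, 61.9, 49.3 and 64.3 CPM in untreated WT and 850, 914, 776 and 898 CPM after LPS (log2 fold change 3.90, SE 0.145). Irgm2 was at 22.5, 25.2, 25.3 and 36.5 CPM untreated and 333, 309, 293 and 341 CPM after LPS (3.54, SE 0.150). Igtp, also known as Irgm3, was at 19.3, 24.1, 23.3 and 27.7 CPM untreated and 512, 514, 479 and 511 CPM after LPS (4.42, SE 0.165). Irgm2 and Igtp, whose promoter windows are nearly identical, were thus 0.88 apart on the log2 scale.

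The order of the changes in WT ran Gbp5, Iigp1, Gbp2, Gbp3, Gbp7, Gbp9, Ifi47, Igtp, Irgm1, Irgm2. It was the same in KO, and in dCIS only Gbp2 (7.04) and Gbp3 (7.17) changed places. Between neighbours in WT, the steps from Gbp5 to Iigp1 (1.35, SE 0.534), from Gbp3 to Gbp7 (1.16, SE 0.314), from Gbp9 to Ifi47 (0.84, SE 0.281) and from Igtp to Irgm1 (0.51, SE 0.219) exceeded their SEs by the widest margins. The step from Gbp2 to Gbp3 was smaller than its SE, and those from Iigp1 to Gbp2 (0.74, SE 0.485), Gbp7 to Gbp9 (0.44, SE 0.307), Ifi47 to Igtp (0.36, SE 0.266) and Irgm1 to Irgm2 (0.36, SE 0.208) were less than 2 SEs. The SEs of these steps treat the genes as independent, and they rest on SEs that are approximate for changes this large. The 3 LPS comparisons do not share libraries. They come from 1 fit, however, and same-numbered untreated KO and dCIS libraries deviated together over all tested genes. The repeated order is therefore not shown to be 3 independent measurements.

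**Figure D2:**
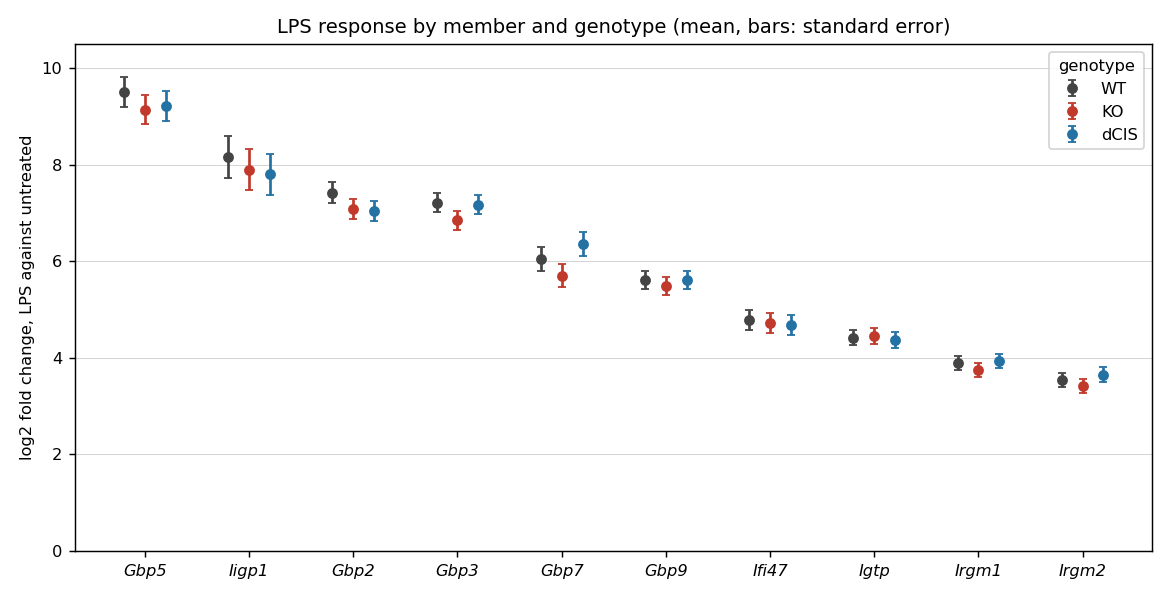
Log2 fold change on LPS of each gene in WT, KO and dCIS, with a standard error derived from the F statistic of edgeR's fit over all 24 libraries as bars. Genes are ordered by their WT value, from 9.50 for Gbp5 to 3.54 for Irgm2, and the genotypes follow nearly the same order.

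Compared per kilobase of exon, a scale on which levels of different genes can be set side by side, Igtp led in untreated WT at 11.7 CPM per kb, followed by Ifi47 (10.2), Irgm1 (9.88), Gbp2 (8.40) and Irgm2 (7.42). Gbp5 (0.659) and Iigp1 (0.634) were at the bottom. After LPS, Gbp2 stood apart at 1440 CPM per kb in WT, with Gbp5 at 479, Gbp3 at 467, Ifi47 at 280 and Igtp at 249. Gbp7 (94.2), Irgm2 (86.5) and Gbp9 (82.7) were then the lowest. Of the upper 5 genes untreated, 4 were thus IRGs, while 3 GBPs were the highest after LPS. Lengths are unions of annotated exons, and libraries were captured by poly(A), so reads need not cover those exons evenly.

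Summed over the 10 genes, levels in untreated WT were 173, 189.9, 171.7 and 224.6 CPM and after LPS 12580, 13030, 11750 and 13430 CPM, a mean of 0.019% of the TMM-scaled library size untreated and 1.27% after LPS. These percentages are not shares of the counts read, because the scaling factors lay above 1 untreated and below 1 after LPS. As shares of counts the rise would be smaller. By summed CPM, which grows with gene length, GBPs were the smaller part before LPS, with a mean of 52.5 ± 5.21 CPM against 137.3 ± 21.9 CPM for IRGs (SD, n = 4), and the larger part after it, with 9273 ± 485 against 3424 ± 314 CPM. In KO the sum of all 10 averaged 233.8 ± 39.9 CPM untreated and 14440 ± 1830 after LPS, and in dCIS 189.1 ± 28.2 and 11940 ± 1850. The spread of the KO and dCIS sums after LPS was wider than that of WT, with KO library 2 (17160 CPM) and dCIS library 2 (14150 CPM) the highest of their groups and dCIS library 3 (9775 CPM) the lowest of all 12.

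Loss of Hdac9 was compared with WT at each treatment. In untreated macrophages, 2 of the 10 genes were called higher in KO, Gbp7 and Gbp9, and 0 were called lower, while 5.03% of all tested genes were called higher and 7.31% in either direction. The median log2 difference of the 10 genes was 0.41, against 0.00 over all tested genes, and it was 0.59 for the 5 GBPs and 0.20 for the 5 IRGs. At an unadjusted p under 0.05 stood 6 of the 10 genes, all 5 GBPs and Irgm2. None of the 10 had all KO libraries above all WT libraries, as 12.1% of all tested genes did.

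Gbp7 was at 13.9, 16.6, 20.2 and 9.62 CPM in untreated KO, against 7 to 10.2 CPM in WT (log2 difference 0.92, SE 0.212; adjusted p = 0.0174, edgeR). Gbp9 was at 12.3, 15.4, 15.1 and 9.81 CPM in KO, against 7.36 to 10.1 CPM in WT (0.59, SE 0.168; adjusted p = 0.0347). In both genes KO library 4 fell within the WT range and the other 3 KO libraries lay above it. The call of Gbp7 was lost without WT library 2 (adjusted p = 0.0784), WT library 3 (0.0708) or KO library 3 (0.0606). That of Gbp9 was lost without any of WT libraries 1 to 3 (0.0559 to 0.133) or KO libraries 1 to 3 (0.0684 to 0.0962), and without KO libraries 2 of both treatments together (0.0847).

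The other 3 GBPs missed the threshold. Gbp5 was at 5.33, 10.2, 9.55 and 2.96 CPM in untreated KO (log2 difference from WT 0.68, SE 0.252; adjusted p = 0.0891, edgeR). Gbp2 was at 22.7, 25.3, 41.2 and 23.6 CPM (0.41, SE 0.171; adjusted p = 0.129) and Gbp3 at 10.8, 17.4, 16.3 and 9.15 CPM (0.38, SE 0.165; adjusted p = 0.145). For Gbp3 and Gbp5, KO libraries 2 and 3 lay above all WT libraries and library 4 was below the WT mean. For Gbp2, library 3 stood far above the other 3 KO libraries, which lay at or just above the highest WT library (22.7 CPM). Without KO library 4, Gbp5 was called (adjusted p = 0.0205).

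Of the IRGs, Irgm2 was at 39.8, 36.4, 39.5 and 30.1 CPM in untreated KO (log2 difference from WT 0.41, SE 0.139; adjusted p = 0.0662, edgeR), and only WT library 4 (36.5 CPM) reached the KO range. It was called with RLE size factors (adjusted p = 0.0422, edgeR), with the replicate number as a block (0.0432) and without WT library 4 (0.019). Irgm1 was at 65.8, 63.5, 73.9 and 60.7 CPM (0.20, SE 0.131) and Iigp1 at 3.78, 10.2, 4.65 and 1.92 CPM (0.50, SE 0.384). Both overlapped the WT libraries, Iigp1 over nearly its whole range. Igtp, at 22.9, 20.7, 30.8 and 20.2 CPM, and Ifi47, at 25.7, 28.7, 30.3 and 18.2 CPM, had differences of 0.00 (95% interval -0.31 to 0.31) and 0.03 (-0.36 to 0.42). DESeq2 called 5 of the 10, adding Gbp2, Gbp5 and Irgm2, where 21.2% of the genes it gave an adjusted p were called. With no filter on low counts these and Iigp1 were added, 6 of 10, where 4.31% of all genes tested were called.

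**Figure D3:**
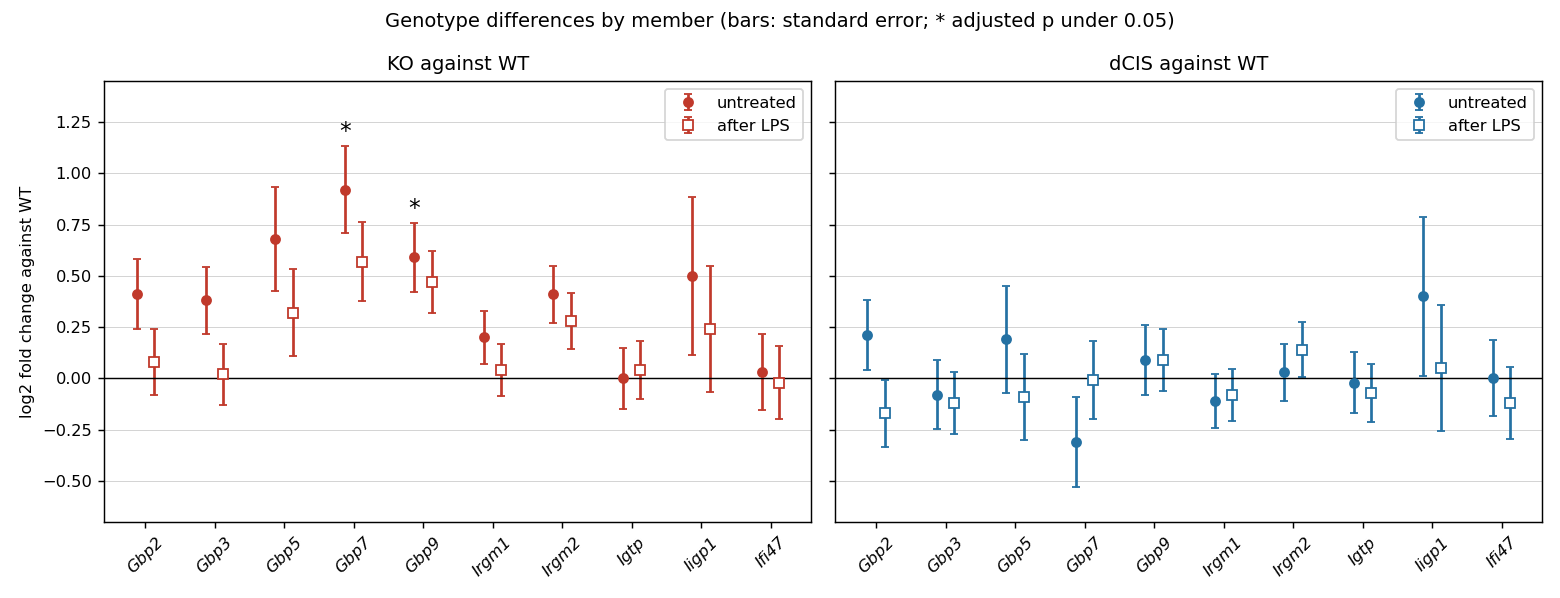
Log2 difference from WT of each gene in KO (left) and dCIS (right), untreated (filled circles) and after LPS (open squares), with standard errors derived from edgeR's F statistic. In KO untreated the values run from 0.00 for Igtp to 0.92 for Gbp7, with asterisks on the 2 called genes, and in dCIS they lie on both sides of 0.

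After LPS, 0 of the 10 genes were called between KO and WT by edgeR, with 3 at an unadjusted p under 0.05, while DESeq2 called 2. Of all tested genes edgeR called 2.74%, and DESeq2 called 11.1% of those it gave an adjusted p. Gbp7 was at 840, 866, 750 and 688 CPM in KO (log2 difference 0.57, SE 0.191; adjusted p = 0.0909, edgeR) and Gbp9 at 630, 633, 565 and 542 CPM (0.47, SE 0.151; adjusted p = 0.0799). Gbp5 was at 3830, 4450, 3840 and 3790 CPM (0.32, SE 0.212; adjusted p = 0.400) and Irgm2 at 363, 470, 357 and 359 CPM (0.28, SE 0.135; adjusted p = 0.232). These are the 4 of 10 genes whose KO libraries all lay above all WT libraries after LPS, an arrangement that 10.8% of all tested genes showed.

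The other 6 genes overlapped between KO and WT after LPS, with log2 differences from -0.02 for Ifi47 to 0.24 for Iigp1. Gbp2 was at 3570, 4870, 3320 and 3520 CPM in KO and Gbp3 at 1470, 1770, 1460 and 1510 CPM. Library 2 of KO was the highest in both, while the other 3 libraries lay close to WT. Irgm1 was at 848, 1070, 798 and 832 CPM, Igtp at 484, 641, 450 and 492 CPM, Iigp1 at 1250, 1490, 1110 and 1110 CPM, and Ifi47 at 603, 908, 580 and 635 CPM. The same library was the highest of its group for all 10 genes. A fit of KO and WT after LPS alone called 3 of the 10, Gbp5, Gbp7 and Gbp9, and 15.9% of all genes it tested.

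KO had the highest mean of the 3 genotypes for 10 of 10 genes untreated and for 9 of 10 after LPS, with Ifi47 highest in WT. Untreated, the log2 difference of KO from WT was only 0.00 for Igtp and 0.03 for Ifi47. In the order of the group means, genotypes next to each other within a treatment had overlapping libraries in 38 of 40 cases over the 10 genes. Neither the ranking nor the overlap was counted over all tested genes. The 10 genes also deviate together within groups, so they are not 10 separate cases. The interval of the KO difference after LPS reached from -0.26 to 0.42 for Gbp2 and from -0.29 to 0.34 for Gbp3. True differences inside those bounds remain compatible with these 4 libraries per group.

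The deletion of the cis element left no called difference from WT among the 10 genes at either treatment. In untreated macrophages, 0 of 10 were called by edgeR, 0 reached an unadjusted p under 0.05 and DESeq2 called 0, while 0.0542% of all tested genes were called. The log2 differences ran from -0.31 for Gbp7 to 0.40 for Iigp1, with a median of 0.01. After LPS, 0 of 10 were called by edgeR, 0 reached an unadjusted p under 0.05 and DESeq2 called 0, against 0.258% of all tested genes. There the differences ran from -0.17 for Gbp2 to 0.14 for Irgm2. Leaving out libraries 3 and 4 of dCIS after LPS together also gave 0 calls.

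In untreated dCIS, Gbp2 was at 18.9, 22.4, 28.9 and 27.3 CPM, Gbp3 at 7.9, 10.4, 8.97 and 11.5 CPM and Gbp5 at 3.67, 5.01, 6.15 and 5.1 CPM. Gbp7 was at 4.7, 8.72, 6.74 and 5.54 CPM (log2 difference from WT -0.31, 95% interval -0.77 to 0.16) and Gbp9 at 7.33, 12.2, 9.62 and 8.12 CPM. For these 5 GBPs library 1 was the lowest of the group, and all overlapped WT. Irgm1 was at 44.7, 51.1, 52.4 and 64.3 CPM, Irgm2 at 23.4, 30.5, 29.1 and 28.6 CPM and Igtp at 18.4, 20.6, 29.5 and 24.6 CPM. Iigp1 was at 2.02, 7.31, 3.42 and 6.65 CPM (0.40, 95% interval -0.41 to 1.21) and Ifi47 at 18.2, 21.3, 30.8 and 30.2 CPM. Library 1 was again the lowest for all 5 IRGs, and the interval of Iigp1 was the widest of the 10.

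After LPS in dCIS, Gbp2 was at 3550, 3800, 2610 and 2870 CPM, Gbp3 at 1480, 1570, 1210 and 1350 CPM and Gbp5 at 3020, 3380, 2620 and 2890 CPM. Gbp7 was at 555, 726, 367 and 445 CPM and Gbp9 at 456, 583, 355 and 432 CPM. Libraries 3 and 4, those with fewer genes detected, lay below libraries 1 and 2 for all 5 GBPs. Total counts were the highest of the group in library 3 (16651501) and the lowest in library 4 (14813435), and the part of gene detection in these levels was not tested. Irgm1 was at 903, 961, 626 and 767 CPM, Irgm2 at 368, 420, 301 and 313 CPM, Igtp at 518, 534, 420 and 455 CPM, Iigp1 at 981, 1440, 743 and 1190 CPM and Ifi47 at 683, 741, 511 and 617 CPM. Library 2 was the highest and library 3 the lowest for each IRG, and only Iigp1 had library 4 above library 1.

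Between the 2 altered genotypes, 4 of the 10 genes were called higher in untreated KO than in untreated dCIS, against 12.1% of all tested genes called higher and 21.3% in either direction. Gbp7 differed most, with every KO library above every dCIS library (log2 difference 1.23, SE 0.216; adjusted p = 0.00107, edgeR), an arrangement that 11% of all tested genes showed. Gbp9 (0.50, SE 0.167; adjusted p = 0.0345), Gbp3 (0.47, SE 0.166; adjusted p = 0.0448) and Irgm2 (0.39, SE 0.139; adjusted p = 0.0483) passed narrowly with overlapping libraries. These last 3 calls were lost in a fit of the 2 groups alone, with adjusted p of 0.103, 0.152 and 0.0677, where 9.65% of all genes tested were called, and without KO libraries 2 of both treatments (0.107, 0.177 and 0.0598). Each was also lost without KO library 2 or 3 or without dCIS library 1 or 3, with adjusted p of 0.0725 to 0.186, and the calls of Gbp9 and Irgm2 without KO library 1 (0.0509 and 0.123) or dCIS library 4 (0.0993 and 0.0772). That of Gbp3 was lost with library size alone too (0.0506). The comparison shares its KO libraries with that of KO against WT and is not a separate measurement of them.

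After LPS, KO and dCIS differed in 0 of the 10 genes by edgeR, with 2 at an unadjusted p under 0.05, Gbp7 (0.59, SE 0.191; adjusted p = 0.0964) and Gbp9 (0.38, SE 0.151; adjusted p = 0.166), and DESeq2 called 0. Of all tested genes 2.18% were called. Without dCIS library 2 after LPS both genes were called (adjusted p = 0.014 and 0.0347). Gbp5 was the only one of the 10 with all KO libraries above all dCIS libraries, as were 5.02% of all tested genes.

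The test of the LPS response itself between genotypes gave no call among the 10 genes. For KO minus WT, 0 of 10 genes were called by edgeR or DESeq2 and 0 reached an unadjusted p under 0.05, with 0.0203% of all tested genes called. The differences ran from -0.36 for Gbp3 and Gbp5 to 0.03 for Igtp. For dCIS minus WT, 0 of 10 were called by edgeR or DESeq2 and 0 reached an unadjusted p under 0.05, with 0% of all tested genes called, and differences ran from -0.38 for Gbp2 to 0.29 for Gbp7. The 95% intervals reached from -1.05 (Gbp5) to 0.49 (Ifi47) in KO and from -0.98 (Gbp5) to 0.91 (Gbp7) in dCIS when Iigp1, the most variable gene, was set aside, and with it down to -1.29 and -1.39. For each gene, differences in response inside its own interval remain compatible with these data.

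Within groups, the 10 genes deviated from their group means together. Over the 24 libraries, Pearson's r of the deviations (log2 CPM minus the group mean) between pairs of the 10 genes had a median of 0.67 over 45 pairs, from 0.31 for Iigp1 with Gbp2 to 0.93 for Gbp7 with Gbp9. The points share library, depth and scaling factor, and the values are a description. In 4 of 24 libraries all 10 genes lay above their group mean, and in 6 all 10 lay below it. The former were untreated KO library 3, WT library 4 after LPS, and the libraries numbered 2 of KO and dCIS after LPS.

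**Figure D4:**
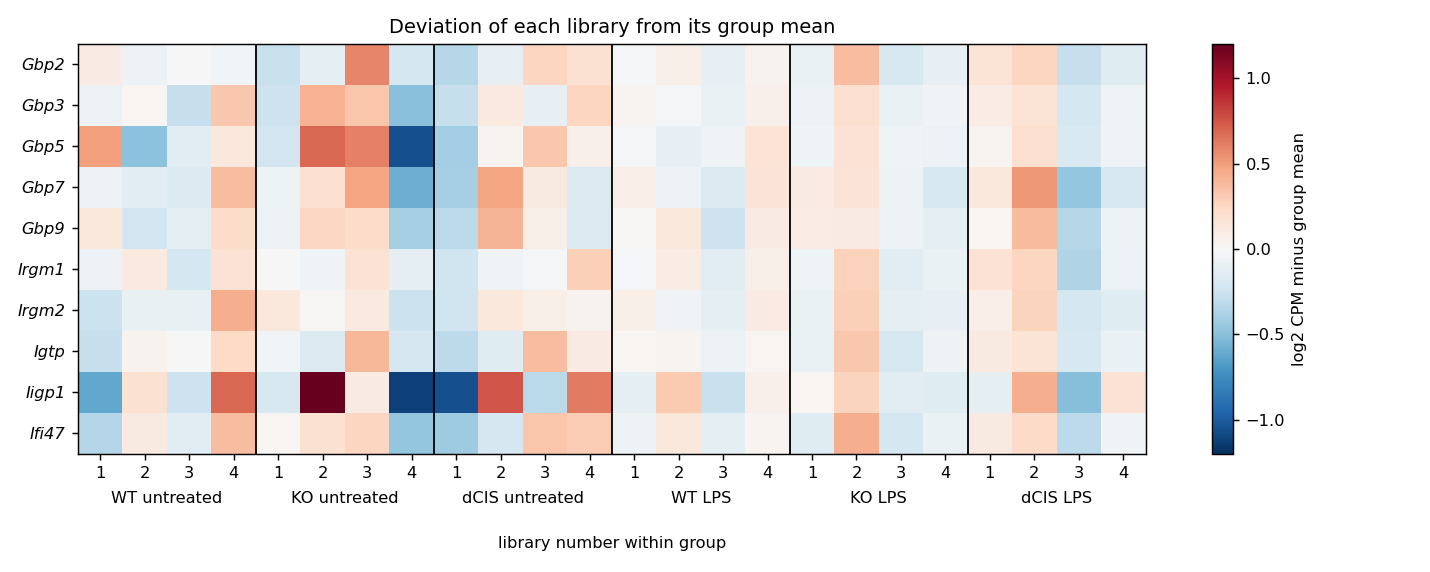
Deviation of each library from its group mean, in log2 CPM, for each of the 10 genes (rows) in all 24 libraries (columns, grouped by vertical lines), where red is above and blue below the mean. Whole columns tend to 1 colour: 4 libraries are above and 6 below their group mean in all 10 rows.

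Outside the 10, the genes whose log2 CPM followed the mean of their standardised levels most closely over the 24 libraries were Ifit2, Parp9, Mndal, Herc6 and Sp100, each at r = 0.999, out of 9686 genes compared. Ifit2 binds viral RNA, Parp9 is an ADP-ribosyltransferase family protein, Mndal belongs to the PYHIN family, Herc6 is the mouse ligase for ISG15 and Sp100 is a nuclear body protein. For deviations from the group means, which leave out the LPS effect, the closest were Ifit2 (r = 0.90), Mndal (0.898), Parp9 (0.891), Pcgf5 (0.891) and Ifi203 (0.886), so 3 genes led on both measures. On LPS in WT they rose by log2 fold changes of 6.71 (Ifit2), 4.12 (Mndal) and 3.27 (Parp9), against 5.83 for the median of the 10.

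The families hold further genes. Of 21 listed, 18 were found by symbol and 17 could be tested, of which 16 rose on LPS in WT and 1 fell, with a median log2 fold change of 4.75. In that comparison 30.4% of all tested genes were called higher. Among the GBPs, Gbp4 rose from a mean of 0.521 to 325 CPM (9.27, SE 0.307), Gbp6 by 6.35, Gbp11 by 6.44 and Gbp8 by 2.01. Gbp10 had 0 counts in all untreated WT libraries and rose at least 78.2-fold over a limit of 3 counts for the group, and the list's median stayed at 4.75 with Gbp10 at that bound. Gbp2b, known as Gbp1, had 1 count over the untreated WT libraries and rose (fitted log2 fold change 7.31, which at so few counts depends on the fit).

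Tgtp1 and Tgtp2, near-identical copies also known as Irgb6, rose by 7.44 and 6.67, and reads could be split between them by the authors' counting. Gm12185, which shares their composite motif, rose by 5.10. The genes with the GAS and ISRE core 11 bases apart thus ranged from 3.54 for Irgm2 to 7.44 for Tgtp1. Gm12250, known as Irgb10, which exposes bacterial ligands to the inflammasome, rose by 4.57, Gm4951 by 4.75, Gm5431 by 4.01, F830016B08Rik by 3.65, 9930111J21Rik1 by 3.18 and 9930111J21Rik2 by 2.64. Gvin1, a very large GTPase, rose by 3.31. Irgq, an IRG relative with an atypical GTPase domain, fell by 0.62, from 11.7 ± 2.38 to 7.59 ± 0.942 CPM.

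In untreated KO against WT, 2 of these 17 genes were called, both higher, Gm5431 (log2 difference 0.98, SE 0.198; adjusted p = 0.00841, edgeR) and 9930111J21Rik2 (1.07, SE 0.322; adjusted p = 0.0445). Of all tested genes 5.03% were called higher and 7.31% in either direction. The libraries of both genes separated completely, with KO higher, as did those of 12.1% of all tested genes. Gm5431 was at 21.4, 26.3, 20.4 and 17.7 CPM in KO and 9.57, 10.4, 8.62 and 14.9 CPM in WT. Leaving out any 1 of the 8 libraries ended the call of 9930111J21Rik2 (adjusted p = 0.0577 to 0.141, edgeR). After LPS 1 of 17 was called, F830016B08Rik (1.11, SE 0.306; adjusted p = 0.0474), and that call was lost without 7 of the 8 libraries in turn (0.0526 to 0.217) and with library size alone (0.0546). In untreated KO against dCIS 4 of 17 were called higher, Gm5431 (0.91), 9930111J21Rik2 (1.23), 9930111J21Rik1 (1.43) and Gvin1 (0.75), of which all but Gm5431 were lost in a fit of the 2 groups alone (0.0533 to 0.0868). That of 9930111J21Rik1 was also lost without 7 of the 8 libraries in turn (0.052 to 0.150). Between dCIS and WT 0 of 17 were called by edgeR at either treatment, with 2 at an unadjusted p under 0.05 untreated and 1 after LPS. Of all tested genes, 2.74% were called between KO and WT after LPS. In untreated KO against dCIS 12.1% were called higher and 21.3% in either direction, and 9.65% in the fit of the 2 groups alone. Between dCIS and WT 0.0542% were called untreated and 0.258% after LPS.

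Upstream of the family, Ifnb1, the interferon beta gene, had 9 counts over the 4 untreated WT libraries and 129 after LPS (log2 fold change 4.51, SE 0.521; adjusted p = 2.78e-08, edgeR), and after LPS 120 in KO and 79 in dCIS. The interferon gamma gene Ifng had 0 counts in all untreated libraries and 7, 5 and 11 counts after LPS in WT, KO and dCIS. Among the interferon alpha genes, Ifna2, Ifna4, Ifna5 and Ifna6 had 0 to 3 counts in any group of 4 libraries and Ifna1 had 1 count in all, while Ifna12, Ifnl2 and Ifnl3 had 0. The 10 GTPase genes summed to a mean of 12700 CPM in WT after LPS. Ifnb1, the most counted interferon gene, averaged 2.58 CPM there and had at most 45 counts in a library.

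Of 5 tested interferon and receptor genes, 4 rose and 1 fell on LPS in WT (median 1.36), where 30.4% of all tested genes were called higher. The type I receptor subunits Ifnar1 and Ifnar2 rose by 1.25 and 1.39, the interferon gamma receptor subunit Ifngr2 rose by 1.36 and its partner Ifngr1 fell by 1.65, from 125 ± 13.8 to 40 ± 1.88 CPM (SD, n = 4). In untreated KO, Ifnar1 was at 151, 142, 152 and 133 CPM against 121, 92.7, 105 and 107 CPM in WT, with no overlap (0.44, SE 0.129; adjusted p = 0.0394, edgeR). That call was lost without WT library 2, 3 or 4 or any KO library (0.0531 to 0.151). Of all tested genes, 5.03% were called higher in untreated KO, and 12.1% had all KO libraries above all WT libraries. Ifnar1 was the only 1 of the 5 genes called. Means in untreated WT and KO were 28.2 and 29.3 CPM for Ifnar2, 125 and 127 for Ifngr1, and 89.7 and 95 for Ifngr2.

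Interferon signalling factors rose in 12 of 13 and fell in 1 on LPS in WT (median 2.62), with Batf2 at 4.94, Jak2 at 4.09, Irf7 at 5.24 and Stat2 at 3.24. Of 7 brakes on the pathway, 6 rose and 0 fell (median 1.64). Of all tested genes, 30.4% were called higher on LPS in WT. Socs1, which blocks JAK kinases, rose by 6.75, Socs3 by 6.19, Usp18, which binds the type I receptor, by 5.48, and the phosphatase gene Ptpn2 by 1.64. Activators and brakes therefore rose side by side in all 3 genotypes, with 12 of 13 signalling genes called higher in each and 7 of 7 brakes in KO and in dCIS.

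**Figure D5:**
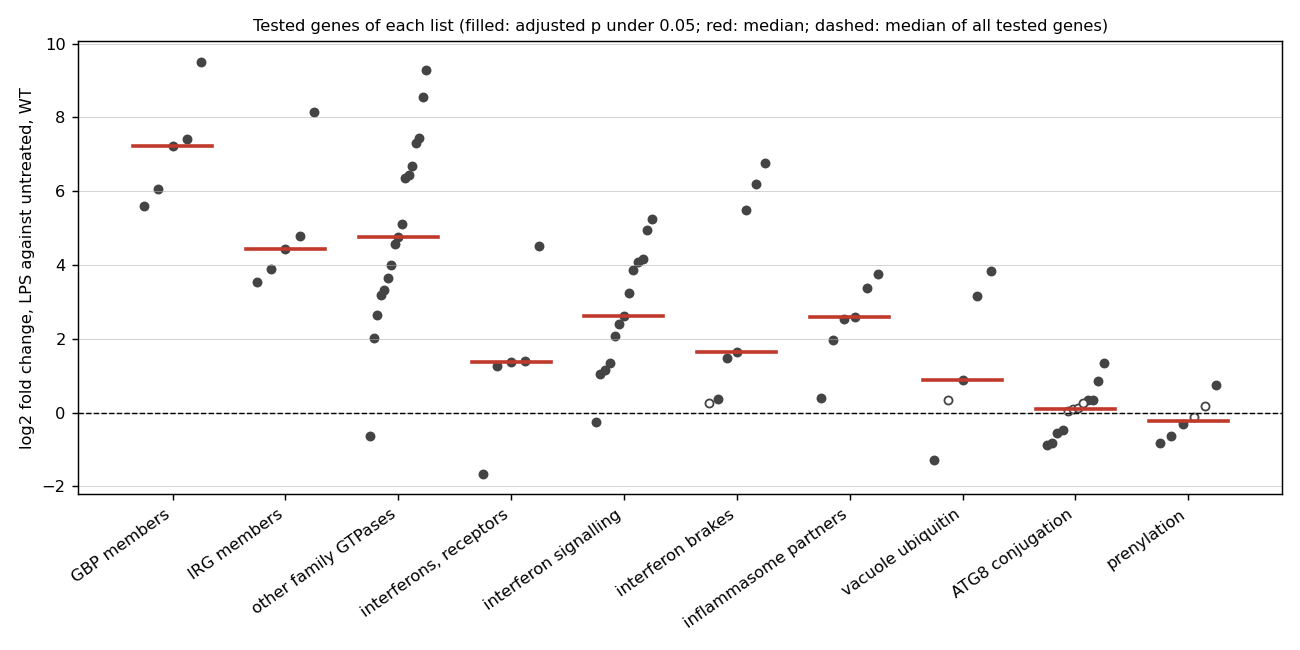
Log2 fold change on LPS in WT for every tested gene of each list (points, filled when called), with the median of the list in red and that of all tested genes dashed. The GBP, IRG and other family genes reach above 8, while the ATG8 conjugation and prenylation genes scatter around 0.

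Genes for proteins that GBPs and IRGs work with went in both directions, as did tested genes as a whole. On LPS in WT, 4484 of all 14757 tested genes were called higher and 4571 lower. All 6 inflammasome partners were called higher on LPS in WT (median 2.58), including Casp4 (3.76), Nlrp3 (3.39), Aim2 (2.60) and Casp1 (2.55). In KO 6 of 6 were called higher, and in dCIS 5 of 6. Of 5 genes for ubiquitin marking of vacuoles, 3 rose and 1 fell, with the ligases Rnf213 at 3.83, Trim21 at 3.17 and Traf6 at 0.88 and the autophagy receptor gene Nbr1 at -1.28. The ATG8 conjugation machinery, which places GBPs and IRG effectors on vacuoles, split into 4 that rose and 4 that fell of 12 (median 0.11). That split is close to the one over all tested genes. Atg16l1 rose by 1.34 and Atg3 by 0.87, while Atg7 fell by 0.83 and Gabarapl1 by 0.87.

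Gbp2 and Gbp5 carry prenyl lipid anchors. The prenylation list holds genes for enzymes that attach such anchors or process prenylated proteins, and not all of them act on these 2 GBPs. Of its 6 genes, 1 was called higher and 3 lower on LPS in WT (median -0.22). Of all 14757 tested genes, 4484 were called higher and 4571 lower. Pggt1b, a subunit of the enzyme that adds the geranylgeranyl group, rose by 0.75 with TMM scaling but stood at -0.06 (adjusted p = 0.544) with library size alone. Its partner subunit Fnta fell by 0.32, Fntb by 0.82 and the methyltransferase gene Icmt by 0.62. With library size alone the values of Atg3 and Traf6 were also no longer called (adjusted p = 0.535 and 0.676).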

How the data were processed

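Poly(A) RNA of 24 macrophage libraries was read as 60-nucleotide pairs, per the labels' protocols. One deposited table of raw gene counts (whole numbers) from the authors was used, and STAR, edgeR and the build mm39 are named in the submitters' processing notes. The sources used here give no versions, counting program or strand setting, so overlapping genes and near-identical paralogs (Tgtp1 and Tgtp2, clustered GBPs) are separated only as far as the authors' counting did. There were 0 unused per-sample columns. Symbols matched 51948 of 56941 gene IDs.

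Counts were fitted in R 4.3.3 with edgeR 4.0.16: TMM factors, the group-aware filter (minimum count 10, minimum total 15), 1 mean per group over all 24 libraries, and 2-sided quasi-likelihood F tests with Benjamini-Hochberg adjustment over the 14757 genes left. Adjusted p-values are from edgeR unless DESeq2 (1.42.0) is named, and intervals are 95%. SEs are the size of the log2 fold change over the square root of the test's F. Intervals take the SE and a t distribution with libraries minus groups as degrees of freedom. For changes as large as those on LPS these SEs are approximate. The fit recovered known changes on simulated counts with the same spread for all genes and few changed genes, balanced up and down. Those counts lacked the broad shift on LPS and the shared deviations of same-numbered libraries. The simulation therefore does not test the fit under these conditions. CPM uses TMM-scaled library sizes, and levels are mean ± SD of 4 libraries. Depth limits precision as the SEs show, and no intervals from counts are given, since PCR reads are not independent molecules. Exon lengths came from GENCODE M21, chromosomes from RefSeq genes and promoters from RefSeq (GRCm38.p6).

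Alternatives were other size factors (RLE, library size), no filter, a filter of 1 CPM in 4 libraries, replicate blocks, the compared groups alone, DESeq2, and leaving out libraries. Same-numbered untreated and LPS libraries deviated together over all tested genes in WT and KO (r = 0.11 to 0.30, each pair over 0.1) and less evenly in dCIS (0.04 to 0.34). Between genotypes, each same-numbered pair was over 0.1 for untreated KO and dCIS only (0.11 to 0.36). The pairing comes from that check, not from a label, and no pair of libraries within a group agreed within sampling noise.

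Genes named are the 10, other family GTPases called on LPS in WT, up to 4 called genes with the smallest p per pathway list, interferon and receptor genes with a count, and the 5 genes most alike on each of 2 measures among those with at least 5 CPM in the higher treatment. Members, lists and motifs were chosen with earlier results of these data known.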

Additional observations from a re-analysis of the deposited data

Results flagged for a closer look

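In 60 groups of 4 libraries (10 genes in 6 groups), 8 held a library whose gap to the nearest of the others exceeded Dixon's 95% limit for 4 values as a share of the group's range, which chance exceeds in about 1 of 20 groups. KO library 2 after LPS stood high in 5 of them. It was at 4870 CPM for Gbp2 (others 3320 to 3570), 1770 CPM for Gbp3 (1460 to 1510), 4450 CPM for Gbp5 (3790 to 3840), 470 CPM for Irgm2 (357 to 363) and 908 CPM for Ifi47 (580 to 635). Untreated KO library 3 was at 41.2 CPM for Gbp2 (others 22.7 to 25.3). Untreated WT library 4 was at 10.2 CPM for Gbp7 (7 to 7.48), and WT library 3 after LPS was low at 479 CPM for Igtp (511 to 514). The 10 genes deviate together, so the 5 values of 1 library are not separate events.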

How the results depend on the processing

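All 10 genes were called higher on LPS in all 3 genotypes under each alternative run, the replicate block within each genotype included (10 of 10 in each), and of 1236 values of named genes on LPS under alternatives 3 changed direction or call, all with library size alone (Pggt1b at -0.06, Atg3 and Traf6 no longer called). Genotype counts moved more. With no filter, 6 genes were called between KO and WT untreated, 2 after LPS, and 2 between KO and dCIS after LPS. Of all genes tested that way, 4.31%, 2.87% and 2.35% were called. DESeq2 called 5 and 2 between KO and WT, untreated and after LPS, and 21.2% and 11.1% of all genes it gave an adjusted p. In fits of the compared groups alone, 3 were called between KO and WT after LPS and 1 between KO and dCIS untreated. Those fits called 15.9% and 9.65% of all genes they tested. Leaving out both KO libraries numbered 2 gave 1 call between KO and WT untreated and 1 between KO and dCIS untreated. Leaving out each library in turn gave 0 to 3 calls between KO and WT untreated, 1 to 5 between KO and dCIS untreated and 0 to 2 between KO and dCIS after LPS. Calls over all genes also moved, and their range over the alternatives is given below.

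A replicate block over all groups added Irgm2 to the calls between KO and WT untreated (3 of 10, adjusted p = 0.0432). It also called 1 gene between KO and WT after LPS (Gbp9, 0.0341) and 1 between KO and dCIS after LPS (Gbp7, 0.0466), and it changed no other call of the 10 genes at an unadjusted p under 0.05. It called more of all tested genes as well, 13.4% between KO and WT untreated, 7.17% after LPS and 5.09% between KO and dCIS after LPS. Each of 12 libraries correlated best with its own number within its genotype. Between genotypes the labels share only a number, and of those pairs of groups untreated KO and dCIS alone had every same-numbered pair over 0.1 (r = 0.11 to 0.36, 3 of 4 best with their own number). Their 4 calls were also made with the block. A block within each genotype cannot be estimated for genotype comparisons. The cause of these changes was not tested. Of 64 values of the 10 genes at an unadjusted p of 0.05 or more, 38 changed sign under at least 1 alternative (at most 0.50 in size) and 4 were called under at least 1. Over all genes, calls ranged over the alternatives from 90 to 2351 (1079 in the reported fit) for KO against WT untreated, 68 to 1995 (405) after LPS, 1198 to 4488 (3147) for KO against dCIS untreated, 62 to 1446 (322) after LPS, 5 to 80 (8) for dCIS against WT untreated and 6 to 277 (38) after LPS, so the background shares move too. For the differences in response they ranged from 2 to 12 (3) in KO and 0 to 35 (0) in dCIS. The difference of Hdac9 between dCIS and WT untreated was 4.36 CPM (exact permutation p = 0.0286), and 3.60 to 5.21 CPM with each library left out, with p = 0.0571 (exact permutation test) without any 1 WT library. With library size alone, the share of called genes that were higher moved from 68.8% to 54.2% (KO against WT untreated), 84.2% to 60.5% (KO against WT after LPS), 12.5% to 33.3% (dCIS against WT untreated) and 61.8% to 33.3% (KO against dCIS after LPS). With 4 libraries per group, SEs of the 10 genes in genotype comparisons were 0.128 to 0.387, which limits what could be detected.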
